A study of Mus musculus with 4 samples.

Results

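The chromosome 15 peaks were the 6367 peaks, of 77823 in the authors' deposited list, that lie on mouse chromosome 15, and each was placed by its summit, the base of highest pile-up. They were taken by chromosome alone. The chromosome was singled out because its peaks were the densest of any autosome, so that rank and the values that go with it are given as a description and carry no test. The study captured Malat1 RNA with its bound DNA from the breast cancer line 4T1-TGL (mouse strain BALBC, genotype WT), grown in DMEM/F12. Its labels give 4 libraries, 1 each of the Even, Odd and LacZ ChIRP pull-downs and 1 Even input. Nuclei were sonicated, the pull-downs used biotin-labelled antisense oligonucleotides, and sequencing gave single reads of 76 nt. The deposited peaks come from 1 merged treatment against 1 input, so no value has a replicate and no library can be set against another. The sources used here do not say which pull-downs were merged.

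Malat1 is an abundant long noncoding RNA that is retained in the nucleus, where it gathers at nuclear speckles and contacts active genes. In ChIRP (chromatin isolation by RNA purification), oligonucleotides complementary to an RNA pull it down together with the chromatin it touches, and the recovered DNA is sequenced. Mouse chromosome 15 carries the Myc and Pvt1 region, the Hoxc genes, the type II keratin genes and a run of type II cadherin genes, and parts of it correspond to a stretch of human chromosome 8 that is often gained in breast cancer.

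Promoters were the places on chromosome 15 where a peak could be shown with its sequence. Of 936 RefSeq promoter windows on the chromosome (250 bases before to 50 after a gene start, GRCm38.p6, 761 genes), 19 held a summit (2.03%), against 405 of 30460 (1.33%) on the other autosomes. Summits of all kinds were 2.05 times as dense on chromosome 15 (63.2 per Mb against 30.8). The promoter shares differed by less than that, so the higher share is no result about promoters. The 19 windows belonged to 18 genes and shared 17 summits. The windows whose peaks had the highest fold enrichment are shown 5′ to 3′ on the strand of the gene, in lower case with the base at the summit in capitals.
Ugt3a1: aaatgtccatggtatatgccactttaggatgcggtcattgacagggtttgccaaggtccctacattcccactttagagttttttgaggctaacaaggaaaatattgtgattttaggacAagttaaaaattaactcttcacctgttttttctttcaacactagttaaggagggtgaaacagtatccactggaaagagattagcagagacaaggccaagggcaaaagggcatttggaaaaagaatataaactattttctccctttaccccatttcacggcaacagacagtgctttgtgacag
Cct5: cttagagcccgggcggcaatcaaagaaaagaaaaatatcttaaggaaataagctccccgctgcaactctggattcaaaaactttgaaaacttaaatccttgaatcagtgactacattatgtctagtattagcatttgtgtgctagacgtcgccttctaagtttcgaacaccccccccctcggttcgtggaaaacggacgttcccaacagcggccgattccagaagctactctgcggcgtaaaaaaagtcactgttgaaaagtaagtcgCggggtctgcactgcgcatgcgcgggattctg
Apol10b: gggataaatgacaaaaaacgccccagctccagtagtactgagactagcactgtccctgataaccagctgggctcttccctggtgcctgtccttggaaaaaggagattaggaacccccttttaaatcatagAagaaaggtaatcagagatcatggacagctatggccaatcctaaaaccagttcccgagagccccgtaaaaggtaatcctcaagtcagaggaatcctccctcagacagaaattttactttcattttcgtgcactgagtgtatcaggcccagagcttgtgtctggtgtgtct
Gm41408: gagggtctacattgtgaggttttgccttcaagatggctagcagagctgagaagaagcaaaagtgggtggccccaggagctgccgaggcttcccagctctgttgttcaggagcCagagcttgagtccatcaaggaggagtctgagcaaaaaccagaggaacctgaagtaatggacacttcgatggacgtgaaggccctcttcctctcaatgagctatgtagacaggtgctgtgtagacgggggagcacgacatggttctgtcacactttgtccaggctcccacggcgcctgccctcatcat
1700088E04Rik: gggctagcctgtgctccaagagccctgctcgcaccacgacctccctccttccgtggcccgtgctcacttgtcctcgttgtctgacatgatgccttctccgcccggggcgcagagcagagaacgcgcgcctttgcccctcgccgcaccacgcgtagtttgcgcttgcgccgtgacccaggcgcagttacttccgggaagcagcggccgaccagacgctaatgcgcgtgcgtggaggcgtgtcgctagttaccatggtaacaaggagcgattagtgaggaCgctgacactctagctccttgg
Polr2f: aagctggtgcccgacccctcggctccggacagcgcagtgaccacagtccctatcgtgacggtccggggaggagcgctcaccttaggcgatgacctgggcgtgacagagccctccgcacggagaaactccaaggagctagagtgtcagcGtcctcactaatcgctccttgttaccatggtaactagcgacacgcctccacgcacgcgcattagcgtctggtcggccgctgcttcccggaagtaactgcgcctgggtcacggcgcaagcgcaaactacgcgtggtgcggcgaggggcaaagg
Ugt3a1, a glycosyltransferase gene, has its window at chr15:9279579-9279878 on the plus strand, with a peak of 17 tags and a fold of 227. Cct5, which encodes a subunit of the TRiC protein-folding chamber, has its window at chr15:31601797-31602096 on the minus strand, with a peak of 18 tags and a fold of 184. Apol10b, an apolipoprotein L gene (chr15:77596076-77596375, minus strand), had 8 tags and a fold of 179.5. The lncRNA gene Gm41408 (chr15:96451659-96451958, plus strand) had 3 tags and a fold of 169.

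The last pair of windows overlap: 1700088E04Rik (chr15:79141202-79141501, minus strand) and Polr2f, which encodes a subunit shared by the nuclear RNA polymerases (chr15:79141075-79141374, plus strand), are divergent neighbours with 1 peak between them. That peak held 29 tags at a fold of 158, and its summit at 79141223 lay 28 bases inside the gene of one and 102 bases before the start of the other. Short motifs were searched on both strands of each window. TATAAA, the TATA box, was found in 3 of the 19 windows with a summit (15.8%), against 13.2% of all chromosome 15 windows and 13.6% of those on the other autosomes. GGGCGG, the core of a GC box, was found in 4 (21.1%), against 36.5% of all chromosome 15 windows. CCAAT was found in 6 (31.6%), against 35.9%, and GAGAGA in 4 (21.1%), against 25.4%. CACGTG, an E-box, was found in 0, against 6.94%. The median number of CG dinucleotides was 4 in the windows with a summit and 7 in all windows of the chromosome. With 19 windows these shares are a description only. None of the 35 microRNA hairpins that RefSeq places on the chromosome overlapped a peak. The peaks add up to 1131 kb of the 100.8 Mb between the first and last summit. Few overlaps could thus arise, and their absence is no result about hairpins.

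Each peak carries the authors' values: the number of treatment tags in it, its length, the summit height (tags piled up at the summit) and the fold enrichment, which is the summit height over the highest local level of the scaled input. Dividing height by fold gives back that input level, here called the implied input and stated in multiples of the genome mean. It cannot fall below 1 by construction, and it is known only where a peak was called. The merged treatment held 851227 tags and the input 50030325, so that 1 Mb of genome at the mean held 315 treatment tags and 10 kb held 185 input tags before scaling. The input level is thus read from many more tags than the peaks.

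Chromosome 15 held 63.2 summits per Mb over the 100.8 Mb between its first and last summit, against 30.8 per Mb over 2298 Mb on the other autosomes, a ratio of 2.05. Chromosome 9 came next with 45.2, then chromosome 11 with 43.6 and chromosome 2 with 39.5. The median peak held 5 tags both on chromosome 15 and on the other autosomes, and the median summit height was 3 in both, while the 95th percentile was 29 tags against 26. Their median length was 149 bp, against 135 bp elsewhere, and this gap was 1 bp once peaks of 3 tags, the fewest any peak held, were left out. The input under the peaks was higher. The median implied input was 2.37 times the genome mean on chromosome 15 and 1.38 on the other autosomes, and the median fold was 87.2 on chromosome 15 and 138 on the others. Since fold is height over input, a given height yields a lower fold where input is higher. Chromosome 15 thus ranked highest of the 19 autosomes in density and in implied input and lowest in median fold.

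**Figure D1:**
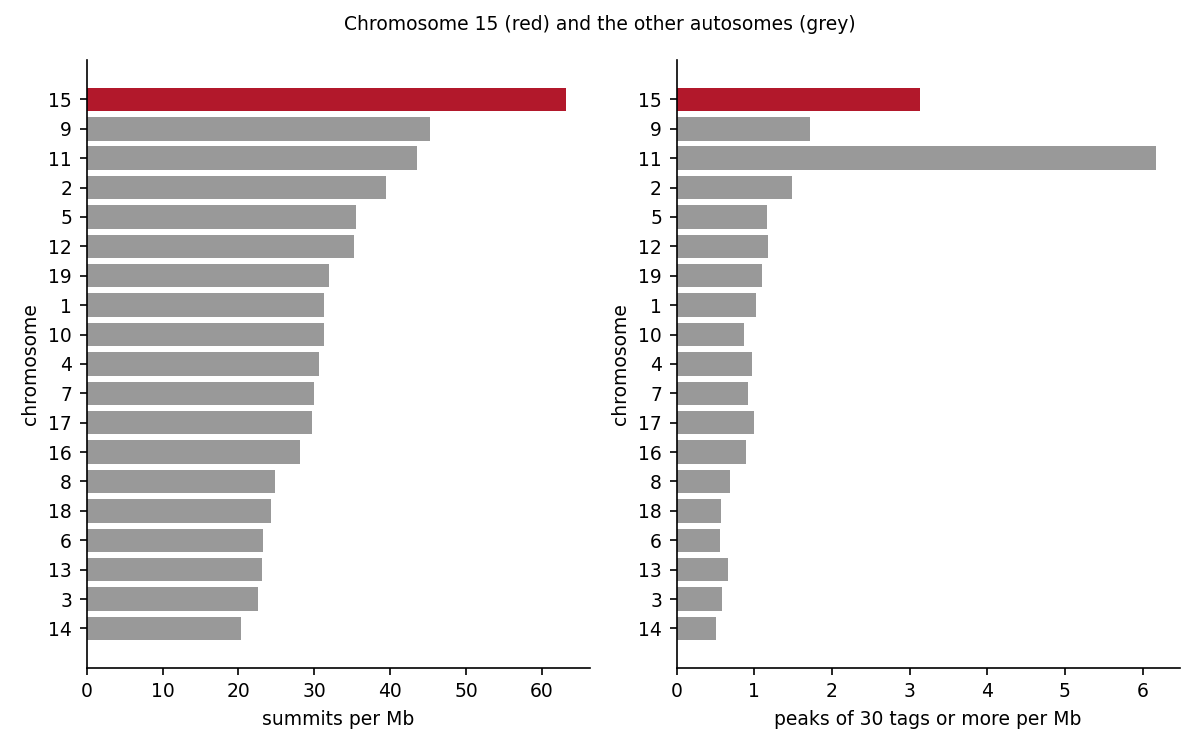
Summits per Mb (left) and peaks of at least 30 tags per Mb (right) for chromosome 15 (red, top row) and the 18 other autosomes (grey, in order of summits per Mb). Chromosome 15 had the longest bar on the left at 63.2 and the second on the right at 3.14, below chromosome 11 at 6.17.

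The excess was not the same for peaks of every size. Of chromosome 15 peaks, 31.4% held 3 tags, against 37.7% on the other autosomes, and in this class the density was 1.71 times that of the other autosomes. The ratio was 2.14 for peaks of 4 tags, 2.27 for 5 to 9 and for 10 to 29, 2.63 for 30 to 99 and 1.91 for 100 or more, a class with 16 peaks on the chromosome. Strong peaks, taken as those of at least 30 tags, numbered 316 on chromosome 15 (4.96%), where 4.04% of the whole list passed this mark and 3.95% of peaks on the other autosomes did. They came to 3.14 per Mb, against 1.22. Of the 2792 strong peaks on the other autosomes, 733 lay on chromosome 11, where they made up 14.2% of its peaks. On the remaining autosomes the share ran between 2.35% (chromosome 18) and 3.79% (chromosome 9). At the mark itself, 17 chromosome 15 peaks held exactly 30 tags and 24 held 29.

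High folds went the other way. Peaks at or above the median fold of the whole list (133) made up 27.1% on chromosome 15 and 52.4% on the other autosomes, with 50.4% in the whole list. Counting only these peaks, the density of chromosome 15 was 1.06 times that of the other autosomes, in place of 2.05. A fold of at least 500 was reached by 55 chromosome 15 peaks (0.864%), against 2.49% on the other autosomes and 2.36% of the whole list, which is 0.546 per Mb against 0.766. Of these 55 peaks, 38 lay in stretches, described further on, with an implied input below 1.5, and 1 in a stretch at 3 or more. That 1 peak, beside Gsdmc3, had an implied input of 1.13 itself. No summit in the whole list was higher than 22, so a fold of 500 is out of reach at an implied input of 3. This split is thus largely fixed by how fold is made and is no separate result. Peaks longer than 500 bp numbered 89 (1.398%), where 1.33% of the whole list passed this length. Of the 929 such peaks on the other autosomes, 571 lay on chromosome 11. Each remaining autosome had a lower share than chromosome 15, from 0.206% (chromosome 6) to 0.806% (chromosome 17).

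Most of the peaks lay where input was high, though these places made up less of the chromosome itself. An implied input of at least 2 was found at 4191 chromosome 15 peaks (65.8%), against 11.02% on the other autosomes and 15.5% in the whole list. By position, 45 of the 1 Mb windows described further on (44.6%) had a median of at least 2, against 1.22% elsewhere. Levels of 2 to 3 held 33.1% of chromosome 15 peaks against 7.06%, and levels of 3 to 5 held 28.98% against 1.47%. Only 1.05% lay within 0.1% of the genome mean, against 9.28%. Among peaks of like input the share of strong peaks differed in either direction. Below 1.25, strong peaks made up 2.35% on chromosome 15 and 2.50% on the other autosomes, at 1.5 to 2 they made up 3.06% and 3.20%, at 2 to 3 they made up 4.69% and 3.77%, and at 3 to 5 they made up 6.88% and 5.39%. Peaks of 3 tags at 3 to 5 made up 16.3% on chromosome 15 and 26.4% elsewhere. At 5 or more, a class with no upper bound, strong peaks made up 9.32% and 38.3%. Chromosome 11 stood out among the other autosomes here, with 30.2% of its peaks at 3 or more, against 3.95% over all of them. Chromosome 9 came next with 16.8%. At 2 or more, chromosome 9 led the other autosomes with 37.1%, against 32.3% on chromosome 11.

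**Figure D2:**
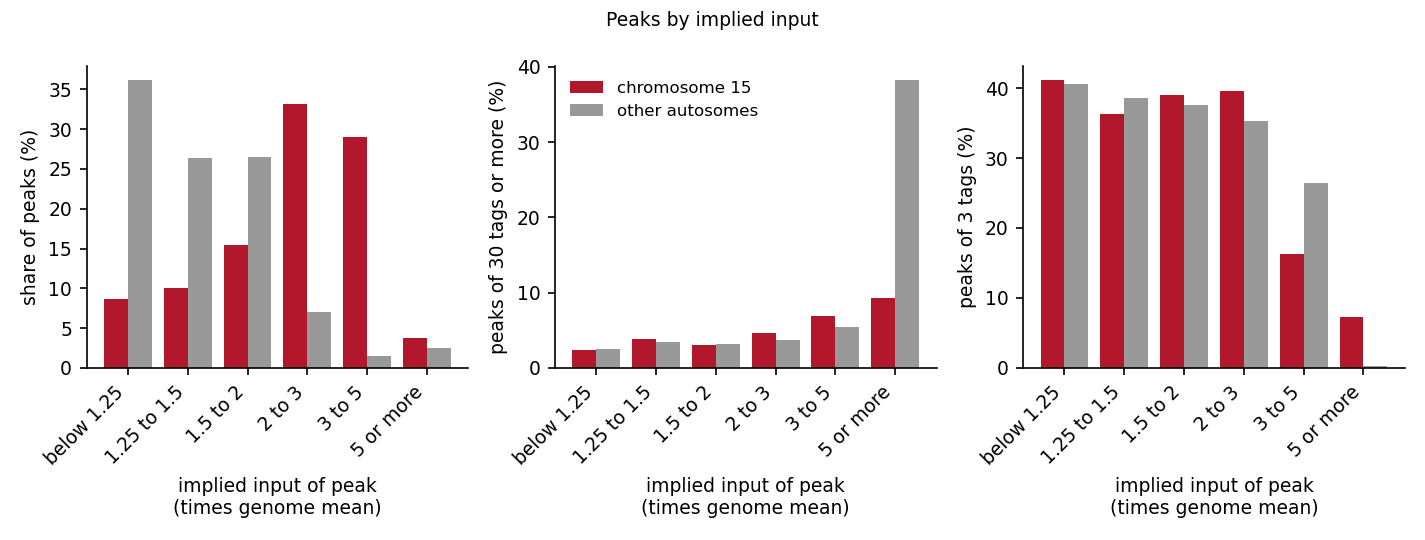
Share of peaks (left), share holding at least 30 tags (centre) and share holding 3 tags (right), each in percent, by class of implied input, for chromosome 15 (red) and the other autosomes (grey). The red bars on the left are longest at 2 to 3 (33.1%) and the grey at below 1.25 (36.2%), while in the centre they are 2.35% and 2.50% below 1.25, 4.69% and 3.77% at 2 to 3, and 9.32% and 38.3% at 5 or more.

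Along the chromosome the peaks changed in density from region to region. In 1 Mb windows the number of summits ran between 17 and 158, with a median of 52, against a median of 27 in the 2300 windows of the other autosomes. At least 100 summits were found in 20 chromosome 15 windows (19.8%) and in 11 of the others (0.478%). The 4 windows with the most summits were at 58 to 59 Mb (158 summits, 11 of them strong), 67 to 68 Mb (146), 79 to 80 Mb (145) and 72 to 73 Mb (136). Their longest protein-coding genes were Fer1l6, a ferlin, with 16 summits over its whole body, the sialyltransferase gene St3gal1 with 22, the actin-binding gene Triobp with 13, and Trappc9, a subunit of a vesicle-tethering complex, with 84. The 4 with the fewest were at 17 to 18 Mb (17 summits), 90 to 91 Mb (18), 23 to 24 Mb (20) and 46 to 47 Mb (20). The windows at 17 and 46 Mb hold no protein-coding gene, and the longest genes in the others are the copine gene Cpne8, with 6 summits over its whole body, and the cadherin gene Cdh18, which reaches beyond its window and has 22 over its whole body. Strong peaks ran between 0 and 16 a window, and 14 windows had none.

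**Figure D3:**
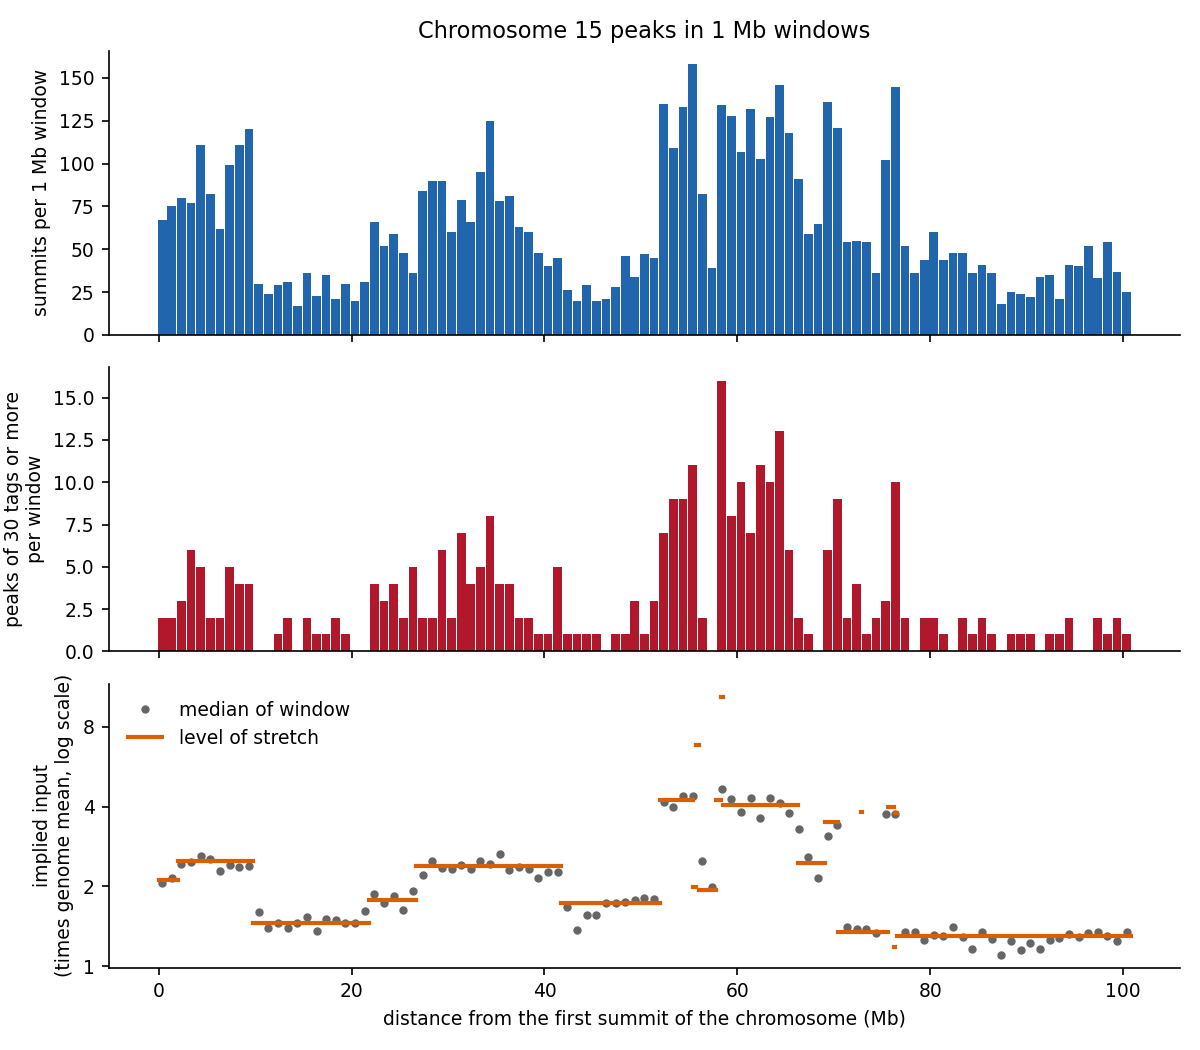
Summits (top) and peaks of at least 30 tags (middle) per 1 Mb window, and implied input in multiples of the genome mean on a log axis (bottom; points are window medians, lines are the 22 stretches), against distance in Mb from the first summit of chromosome 15. Windows with 100 or more summits sit mainly where the points lie near 4, and the last stretch, of 24.2 Mb at a level of 1.30, holds 38.0 summits per Mb.

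Windows with more input held more summits. Over all windows of the chromosome, which fall into the classes of 37, 47 and 17 given below, Pearson's r between the number of summits and the median implied input was 0.896 and Spearman's coefficient 0.810, and without the 2 windows of most extreme input r was 0.890. All windows come from 1 list, neighbouring windows share input levels, and implied input is read from the same peaks that are counted, so these coefficients only describe the list. The 37 windows with a median implied input below 1.5 held 17 to 60 summits each (median 36), the 47 at 1.5 to 3 held 20 to 125 (median 60), and the 17 at 3 or more held 91 to 158 (median 128). Strong peaks made up 3.26%, 4.31% and 6.92% of the peaks in these classes. Within the lowest class alone r was 0.0160, within the middle class 0.787 and within the highest class 0.485.

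Set beside windows in the same class of input on the other autosomes, the windows of chromosome 15 differed less. At an implied input of 1.25 to 1.5 the median was 36 summits in 30 chromosome 15 windows and 32 in 779 other windows. At 2 to 3 it was 78.5 in 28 windows and 86 in 12 others, and at 3 or more it was 128 in 17 and 102 in 16 others. The class of 3 or more has no upper bound. Its window medians reached 4.64 on chromosome 15 and 30.4 elsewhere, where the windows held 7 to 672 summits, so input was not alike there. At 1.5 to 2 the chromosome 15 windows were lower, as at 2 to 3, with 36 summits in 19 chromosome 15 windows and 49 in 321 others. Gene content differed in that class: these chromosome 15 windows held a median of 2 protein-coding genes and the others 12. Its part in the result was not tested.

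Gene content also went with density within the chromosome. The number of summits per unit of implied input had a Spearman's coefficient of 0.566 with the number of protein-coding genes over the same windows, and 0.460 over the 2300 windows elsewhere. Among windows with an implied input below 1.5, those with 10 or more protein-coding genes held a median of 44 summits on chromosome 15 (19 windows), against 24 in those with 2 or fewer (11 windows). The same classes on the other autosomes held 32 and 18. At 3 or more the medians on chromosome 15 were 133 with 10 or more genes (4 windows) and 123 with 2 or fewer (6 windows). Without regard to input, the number of genes and of summits had a Pearson's r of 0.0287 and a Spearman's coefficient of 0.273. The number of genes had a Spearman's coefficient of -0.136 with implied input, which enters the 0.566 through the division.

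The chromosome was described in stretches of like input. A piecewise constant fit to log2 implied input, whose settings were chosen after the data were seen, divided chromosome 15 into 22 stretches with medians between 1.18 and 10.4. Such a fit returns steps for any profile, and gradual changes within a stretch were not tested. More than 2-fold from the level of their stretch lay 14 peaks (0.220%), 7 below and 7 above. The levels were fitted to these same values, and no peak can lie 2-fold below a level under 2, since implied input starts at 1. This number is therefore no check on the stretches. From the first summit, the chromosome began at 2.12 and 2.48 as far as 12.9 Mb, with 77.0 and 92.7 summits per Mb. It then lay at 1.46 as far as 24.9 Mb with 27.6 per Mb, at 1.78 as far as 29.8 Mb with 52.5, at 2.38 as far as 44.9 Mb with 73.5, and at 1.73 as far as 55.1 Mb with 31.5. The middle part, between 55.1 and 79.7 Mb, was the most divided, with 15 of the 22 stretches. The chromosome ended with 24.2 Mb at 1.30, which held 921 summits, 38.0 per Mb, and 366 of the protein-coding genes.

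The 9 stretches at a level of 3 or more covered 14.4 Mb (14.2% of the span) and held 2000 summits (31.4%) and 145 of the 316 strong peaks (45.9%). The 5 stretches below 1.5 covered 41.5 Mb and held 1522 summits and 46 strong peaks. Density was 139 summits per Mb in the high set, against 36.7 in the stretches below 1.5, a ratio of 3.80, and for strong peaks the ratio was 9.10 (10.1 per Mb against 1.11). A peak needs more tags to pass the p cutoff where local input is higher, so peak size is partly fixed by the calling. In the high stretches the median was 7 tags, a length of 178 bp and a height of 4, against 5 tags, 134 bp and a height of 3 in the stretches below 1.5. Peaks of 3 tags made up 15.5% against 38.2%. The stretches at 1.5 to 3 had a median of 4 tags and 134 bp, with 38.9% of peaks at 3 tags. With the 9 high stretches left out, chromosome 15 held 50.5 summits per Mb, 1.64 times the other autosomes.

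**Figure D4:**
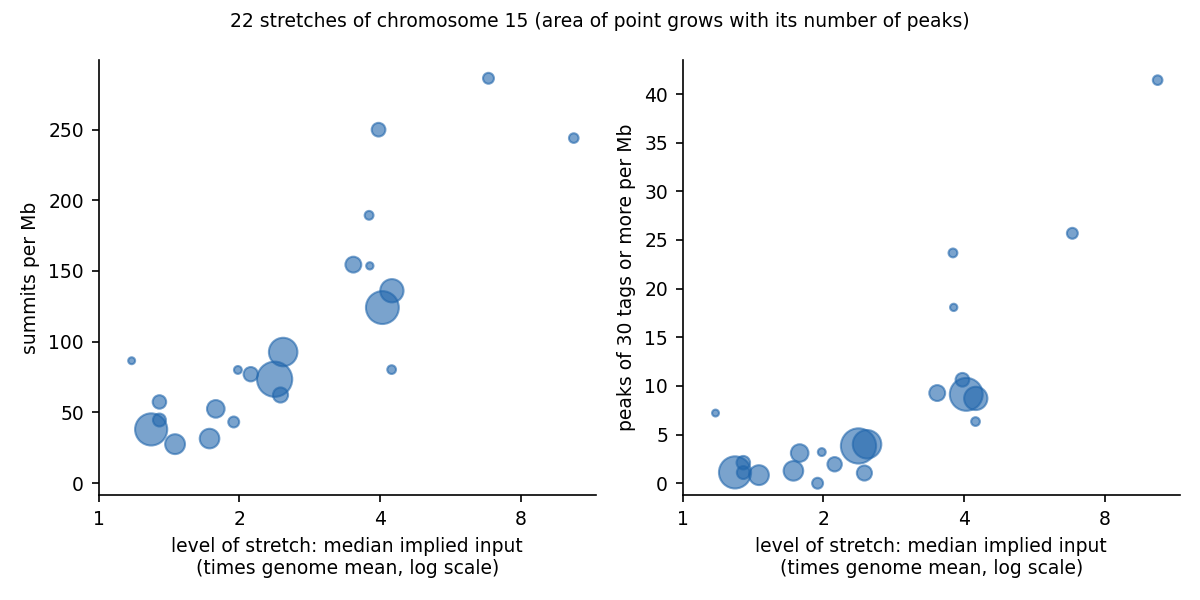
Summits per Mb (left) and peaks of at least 30 tags per Mb (right) against the level of implied input (log axis, multiples of the genome mean) in the 22 stretches of chromosome 15, the area of a point growing with its number of peaks. The stretches below 1.5 lie at 27.6 to 86.6 summits per Mb, and the point farthest right, at 10.4, holds 244 summits and 41.4 strong peaks per Mb.

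The highest level, 10.4, was reached in a stretch of 0.217 Mb between 61413752 and 61619176 that holds no protein-coding gene. It had 53 summits, none of them inside any annotated gene, and 9 strong peaks. No peak there held as few as 3 tags, and the median was 11 tags. Its level stood between 4.24 on the proximal side, across a gap of 4015 bp between neighbouring summits, and 4.05 on the distal side, across 19676 bp. Myc, the transcription factor oncogene, lies in the distal stretch, of 7.77 Mb and 965 summits. Myc had no summit in its body and 2 within 5 kb, of which the higher fold was 73.5 with 9 tags, and Pvt1, the neighbouring lncRNA, had 45 in its body.

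The next level, 6.83, spanned 0.273 Mb between 58877145 and 59133640 and overlaps Trmt12, Rnf139, Tatdn1, Ndufb9 and Mtss1. It held 78 summits, or 286 per Mb, the densest of the 22 stretches, and 82.1% of them lay in a gene. On its flanks the level was 1.99 proximally and 1.95 distally. Mtss1, whose product bends membranes at the actin cortex, took up most of this stretch and held 50 summits with 659 tags in 143 kb. The distal border of this stretch lay in a gap of 2999 bp.

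Other high stretches lay farther along. A stretch of 1.29 Mb at 3.51 overlaps Trappc9, Ago2, a core protein of RNA silencing, and the focal adhesion kinase gene Ptk2, and held 154 summits per Mb. A stretch of 0.111 Mb at 3.80 overlaps Fam83h and Mapk15, with levels of 1.35 on both sides. Stretches at 3.97 and 3.79 flank one of 1.18 near 79.4 Mb. The 3.97 stretch overlaps 23 protein-coding genes, among them Sox10, Lgals1 and Polr2f, and held 249.9 summits per Mb. The 3.79 stretch overlaps 8, among them Ddx17 and Tomm22, and held 189. The genes named for these high stretches were chosen after their values were seen.

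Each border between stretches is placed between 2 neighbouring summits. These lay 1011 to 68479 bp apart (median 16860 bp), which is the spacing of the peaks there and no measure of how quickly the level changes. At 16 of them the level changed by at least 1.5-fold. The narrowest lies in Drosha, the nuclease that starts microRNA processing, between summits at 12930977 and 12931988, with a level of 2.48 proximally and 1.46 distally. Others fall in or beside Fer1l6 (4.24 proximally and 1.99 distally), Pla2g6 (3.97 and 1.18) and Josd1 (3.79 and 1.30). The border genes were chosen after their values were seen, and each border is the fit's own.

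Some peaks stood apart from the stretch they lie in. The peak with the most tags on the chromosome, 405, at chr15:75085469-75087080, was also the longest at 1612 bp and ranked 6 of the whole list by tags. Its fold was 29.3 and its implied input 44.9, in a stretch at 1.35, and the nearest gene is the lncRNA Gm52219, 16622 bp away. Its summit height was 22, the highest in the whole list, which 103 peaks reached. A peak of 99 tags at chr15:63109819-63110204 had the same height, so fold does not follow the number of tags there. The reverse was seen beside Gsdmc3, a gene of the pore-forming gasdermin family, where a peak of 21 tags had an implied input of 1.13 in the stretch at 4.05 and a fold of 686. The other gasdermin C copies lie next to it, and the sources used here do not say how reads matching several places were handled.

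Among the other peaks with the most tags, 133 lay 7261 bp from the annexin gene Anxa13 at a fold of 319 (chr15:58333896-58334405). Stk3, a kinase of the Hippo pathway, held a peak of 128 tags at a fold of 609.9 in its body (chr15:34899123-34899704). A peak of 127 tags lay 104684 bp from the lncRNA 1700012I11Rik, and one of 121 tags, with a fold of 672, lay in the lncRNA Gm31458. Peaks of 120 tags lay 39591 bp from Angpt1, a ligand of the Tie2 receptor of blood vessels, 36922 bp from the zinc finger gene Zfat and 176882 bp from the lncRNA Gm29904. The last is in the stretch at 10.4, and its fold was 109, against 475 for the peak near Angpt1 and 364 for that near Zfat. The same number of tags thus stood at folds that differed with the input. Strong peaks lay inside a gene in 52.2% of cases on chromosome 15, against 61.0% on the other autosomes.

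The highest folds came from stretches of low input, where a given height yields a higher fold. The highest, 993 with 80 tags, lay in Slc2a13, an inositol transporter gene, at an implied input of 1.08. A fold of 857 was found 47851 bp from the cadherin gene Cdh12, and 785 in Dnal4, a dynein light chain gene, both in stretches below 1.5. Slc2a13 was chosen after its value was seen. Summits within 1 kb of a gene end numbered 389 (6.11%) on chromosome 15, the lowest share of any autosome, against 8.11% on the others. In the stretches at 3 or more the share was 6%, at 1.5 to 3 it was 4.60%, and below 1.5 it was 9.07%. Protein-coding genes numbered 6.27, 3.85 and 12.3 per Mb in these classes, the same order as the shares. The part of gene number in these shares was not tested. Inside a gene lay 53.5% of the summits, against 57.0%. After Dnal4 (785) and Gsdmc3, the gene ends with the highest folds were those of the apolipoprotein gene Apol8 (591), of Amhr2, the receptor of anti-Müllerian hormone (532), of the lncRNA genes Gm33723 (525) and Gm36555 (522), and of the overlapping Cpt1b and Gm44502, which share a peak at 504. Cpt1b encodes the muscle form of the enzyme that admits fatty acids to mitochondria. These peaks held 21 to 50 tags.

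The genes with the most summits were long ones. Trappc9 held 84 in 472 kb and Ctnnd2, a catenin of neuronal junctions, 74 in 857 kb. The calcium sensor gene Ncald held 55, Pdzd2, which encodes a protein with many PDZ domains, 53 and Mtss1 50. Asap1, a regulator of Arf GTPases, held 40, while the potassium channel gene Kcnq3 and the thyroglobulin gene Tg held 37 each. The median implied input at their summits ran between 2.27 in Ctnnd2 and 6.78 in Mtss1, and their highest folds between 160.3 in Kcnq3 and 375 in Ncald. Counted per kb among protein-coding genes of at least 10 kb with at least 5 summits, the leading genes lay in high stretches. Fam83h, a keratin-organising gene, held 0.453 summits per kb (6 in 13.2 kb), Sh3bp1 0.407, the Golgi sorting gene Gga1 0.402, the endocytic recycling gene Micall1 0.388 and Mtss1 0.350.

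Of the 774 protein-coding genes of the chromosome, 586 had a summit inside the gene or at most 5 kb from it (75.7%, 95% Wilson interval 72.6 to 78.6, counting error only), against 62.3% on the other autosomes and 60.8% on all chromosomes analysed. Genes were of like length in both (median 18.3 kb against 17.4 kb). Under 10 kb, 53.7% of 259 genes had a summit, against 37.2%. At 100 kb or more every gene of the chromosome had one, against 98.4%. The share followed the stretches, at 98.9% of 90 genes where the level was 3 or more, 89.0% of 173 at 1.5 to 3 and 67.1% of 511 below 1.5. Genes differed in length between these classes, with medians of 28.2, 39.99 and 13.0 kb.

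Gene groups were read against this 75.7%, since they were picked with results of these data known. A fold given for a member is that of a peak in its body or at most 5 kb from it. All 5 type II cadherins, adhesion molecules of cell junctions, had a summit, in a gene-poor stretch at 1.46. The highest fold in each was 639.8 in Cdh12, 512 in Cdh18, 308 in Cdh10, 296 in Cdh9 and 112 in Cdh6, and they held 28, 22, 11, 5 and 3 summits in the same order. Cdh12 and Cdh18 are the longest members, at 1150 and 929 kb, and the shortest, Cdh9, spans 129 kb. Each is thus of at least 100 kb, a length at which every chromosome 15 gene had a summit. Their summits per kb ran between 0.321 (Cdh6) and 0.882 (Cdh10) times the density of the chromosome. The Cdh6 peak with the highest fold held 3 tags. All 12 genes of a list on axons, junctions and cell shape had a summit too. Cntn1, an axonal adhesion molecule, reached 479, the guidance cue Sema5a 367, the secreted glycoprotein gene Nell2 353 and the planar polarity cadherin Celsr1 329, from a peak 3935 bp outside the gene. These genes had a median length of 167 kb, and every chromosome 15 gene of at least 100 kb had a summit.

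The genes of the Myc region, a block syntenic with part of human chromosome 8, had a summit in 47 of 51. Zfp572, Sqle, Washc5 and Lratd2 had none, Sqle being the squalene epoxidase of cholesterol synthesis and Washc5 a subunit of an endosomal actin regulator. After Gsdmc3, the highest folds were 501 in Csmd3, a long gene for a membrane protein, 436 in Eif3h, a subunit of the initiation factor eIF3, and 433 in Enpp2, which encodes autotaxin. All 3 lie in the stretch at 1.73, outside the high stretches. Their peaks held 40, 37 and 36 tags. The stretch levels of the group ran between 1.73 and 6.83, with a median of 4.05. Of the chromosome's protein-coding genes, 89.0% had a summit at levels of 1.5 to 3 and 98.9% at 3 or more. The group's share, 92.2%, lies between these. Its 51 members had a median length of 57.1 kb and include the lncRNA Pvt1 and the transcribed pseudogene Zfp572.

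A list of growth factor, cytokine, nuclear and adhesion receptors, with the ligand genes Pdgfb and Gdnf, had a summit in 20 of 23. Amhr2 led with 532, followed by Acvrl1, an endothelial receptor of the TGF-beta family, with 429, Il2rb, a chain of the interleukin 2 receptor, with 384, and Prlr, the prolactin receptor of mammary epithelium, with 360. Amhr2 held 1 summit of 36 tags, and Prlr held 17 summits in 172 kb. The peak of Acvrl1 lay 3472 bp outside the gene. Tnfrsf11b, the decoy receptor osteoprotegerin, Tnfrsf13c, the BAFF receptor, and the fibronectin receptor subunit Itga5 had none. A list of complement, immune and signalling genes had one in 13 of 15, led by the complement gene C6 (328) and by Ptk2 (321), followed by the complement gene C9 (284) and Fyb, a T cell adaptor gene (269). Card6 and the cytidine deaminase gene Apobec3 had none.

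Of 3 Wnt ligand genes, Wnt7b reached a fold of 355 with 28 tags and Wnt10b, which acts in mammary development, 250.4 with 8 tags, while Wnt1 had no summit. Chromatin and transcription regulators had a summit in 21 of 30, led by Arid2, a subunit of the PBAF remodelling complex, at 621. Drosha followed at 362, Sp7, the osteoblast transcription factor, at 359 and Mrtfa, a coactivator that responds to actin, at 338. The Sp7 peak lay 2781 bp outside the gene. A mixed list of tubulin, ribosomal and translation genes with other housekeeping genes, such as the polymerase subunit genes Polr2f and Polr2k, had one in 12 of 16. Eif4b, which assists unwinding of mRNA for translation, led with 599 and 45 tags, then Eif3h, Ywhaz, a 14-3-3 protein gene, with 209.7 and the ribonucleotide reductase gene Rrm2b with 197. Pabpc1, the poly(A) binding protein gene, Rpl8, Tuba1b and Tuba1a had none.

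The groups of short clustered genes fell on both sides of the 75.7%. Type II keratins with Krt18, the intermediate filaments of epithelia, had a summit in 22 of 27, and 20 distinct peaks served as the highest of a member. Krt81 and Krt88 shared a peak at 432 with 32 tags, which lay outside both genes, Krt71 reached 274 with 8 and Krt1 272 with 15. Krt82, Krt6b, Krt77, Krt79 and Krt8 had none, and Krt8 is the simple epithelial partner of Krt18. The Ly6 family of small membrane-anchored proteins had a summit in 12 of 22, led by Ly6d at 384 with 34 tags, Ly6h at 319 with 10, Gml2 at 309 with 18 and Ly6g2 at 214 with 5. The peaks of Ly6d, Gml2 and Ly6g2 lay outside the genes, by 1256, 837 and 1511 bp. In the Hoxc cluster, body-patterning transcription factors with the lncRNA Hotair, 2 of 10 genes had one: Hoxc12 at 260.3 with 23 tags and Hoxc13 at 151 with 3. The Hoxc12 peak lay 2758 bp outside the gene. All of these clusters lie in stretches at 1.30 or 1.35, their median gene lengths are 8.27 kb for keratins, 3.86 kb for the Ly6 family and 4.49 kb for Hoxc, and near-identical copies among them can share reads. No test of any group against the rest was made, since the list has no replicate and the members were picked with results known.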

How the data were processed

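The authors deposited 77823 peaks, the same in 3 lists, from 1 run of MACS 1.4.4 on a merged treatment against an input, per the file headers, with a p cutoff of 1e-05. Per the submitters' processing notes the build is mm10 (GRCm38). The aligner and the libraries that were merged are not given in the sources used here. The authors kept 851227 of 988411 treatment tags and 50030325 input tags, and the input was scaled down, per the file headers. Tags are deposited as a whole-number count per peak. Fold is the authors' ratio of summit height to local input. The authors' score is the MACS p as a negative log10, times 10. Their false discovery rate, in percent as deposited, is 0 for all peaks, and summit height is a deposited signal, the unscaled pile-up. All are each peak's own values, and they serve here for description and ranking alone.

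Implied input is height over fold, over 0.0167 tags per fragment (the tag total times a fragment of 53 bp over 2.7 gigabases). Genes come from RefSeq, GRCm38.p6, which gives ends but no strand or exons in the table used, and 8 entries below 3 Mb were left out. Promoter sequences come from RefSeq windows of the same build. Densities are over the span between the first and last summit. Stretches came from a least-squares piecewise constant fit to log2 implied input (penalty 20, at least 10 peaks). These settings were chosen after the data were seen, and the fit was tried on simulated steps. The simulated stretches all held more peaks than the shortest here (12 peaks), and their steps exceeded the smallest here (1.17-fold). That trial therefore does not cover such small stretches and steps. Python 3.11.15, numpy 2.4.6, pandas 2.3.3 and scipy 1.17.1 were used.

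Named genes are those with the most summits, the most per kb (at least 10 kb and 5 summits), the highest folds near an end, those at the peaks with the most tags, the longest in the fullest and emptiest windows, and up to 4 per gene list. The chromosome, the lists and the rule were chosen with earlier results of these data known. With 1 list and no replicate, no test was made. Intervals and counts cover counting error only. Sequence was read only in promoter windows that hold a summit, since no genome was used here.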

Additional observations from a re-analysis of the deposited data

How the results depend on the processing

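No called difference changed sign under the alternatives run. The density ratio of chromosome 15 to the other autosomes, 2.05, was 2.26 without peaks of 3 tags, 1.89 for peaks with a score of at least 100, 2.58 for peaks of at least 30 tags, 1.64 without the stretches at an implied input of 3 or more, and 1.06 for peaks whose fold reached the list median. The difference in median fold, -50.8, was -75.2 without peaks of 3 tags, -67.0 at a score of at least 100 and -30.8 against chromosomes 9, 11 and 2. The ratio of implied input, 1.73, was 1.81 without peaks of 3 tags and 1.502 against those 3 chromosomes. The difference in median tags, 0, was 2 at a score of at least 100. That in median length, 14 bp, was 1 bp without peaks of 3 tags, 24 bp at a score of at least 100 and 0 bp against chromosomes 9, 11 and 2. The highest over the lowest window, 9.29, was 16.3 in 0.5 Mb windows, 6.66 in 2 Mb windows, 12.1 without peaks of 3 tags, 12.2 at a score of at least 100 and 5.13 for peaks at or above the median fold, and the correlation of 0.896 was 0.822 in 0.5 Mb windows. The share of summits in a gene, 53.5%, was 62.7% with 5 kb added, 44.4% in protein-coding genes and 54.8% at a score of at least 100. The share near a gene end, 6.11%, was 24.7% within 5 kb, 2.83% for protein-coding genes and 6.85% at a score of at least 100. The share of genes with a summit, 75.7%, was 62.3% in the body alone, 66.3% without peaks of 3 tags and 58.3% at a score of at least 100. The 22 stretches were 20 to 28 under other penalties and minimum sizes, which were chosen after the data were seen. Apart from settings whose own construction shows it, the cause was not tested. No paired analysis was possible because the list holds 1 merged treatment and no values per library.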
